A study of Homo sapiens with 27 samples.

Results

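The genes described here form the switch that admits a mammalian cell from G1 into S phase. They are the 3 D-type cyclins (CCND1, CCND2, CCND3), their kinases CDK4 and CDK6, the kinase inhibitor CDKN2C (p18), the retinoblastoma protein gene RB1, the E-type cyclins CCNE1 and CCNE2, and their kinase CDK2. The 10 genes were chosen by name for these roles, out of 34584 genes with values, and all 10 passed the filter on low counts that left 17220 genes for testing. Messenger RNA was sequenced from 9 human cell lines, each with 3 libraries that the series describes as biological replicates, so 27 libraries in all. No treatment was given and each line is its own group.

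The skin lines were SK-Mel 24 and SK-Mel 28, which are known as melanoma lines. U2-OS carried the tissue label bone, A549 lung, U251 brain, Caco2 colon and HepG2 liver. BJ was labelled epithelial and RT4 kidney. As background, BJ is a skin fibroblast line that was never transformed, and the other 8 lines come from tumours. A549 and BJ were grown in DMEM with 10% serum. McCoy medium, also with 10% serum, was used for U2-OS and RT4. EMEM with 10% serum was used for U251, HepG2, Caco2 and SK-Mel 28, and EMEM with 15% serum for SK-Mel 24, so medium and line cannot be told apart. Going by the labels, each tissue is represented by 1 line, except skin by a pair. A value of a line is not a value of its tissue.

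In a resting cell the RB1 protein holds E2F transcription factors inactive. Growth signals raise D-type cyclins, which bind CDK4 or CDK6, and these kinases begin the phosphorylation of RB1. Freed E2F then switches on the genes of DNA replication and also the E-type cyclins, which bind CDK2 and complete the phosphorylation. The INK4 inhibitors, to which CDKN2C belongs, occupy CDK4 and CDK6, whereas the CIP/KIP inhibitors act mainly on cyclin-CDK2 complexes. Most of this control acts on proteins, and the values below are of messenger RNA.

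Libraries held 15597117 to 32583547 estimated counts. The 3 HepG2 libraries stood apart: mitochondrial genes took 71.1%, 33.8% and 32.6% of their counts, against 0.928% to 5.72% in the other 24. They also held fewer transcripts above 0 (45767 to 52661 against 71121 to 90484), and their effective lengths implied shorter fragments (a median length minus effective length of 182 to 196 bases against 223 to 252). Levels between lines are therefore given as CPM after TMM scaling, counts set to a common library size by a factor that corrects for a few genes that take much of a library. Levels between genes of 1 library are given as TPM, transcript abundances scaled to transcript length. On the deposited TPM scale the median gene lay 1.21 log2 units lower in HepG2 than in the other lines, against 0.17 lower on the TMM scale, so HepG2 values are read relative to that shift. The part of these library differences in the HepG2 results was not tested. Defining markers were high in SK-Mel 28, Caco2, HepG2, BJ and RT4, with ALB at 7110 TPM in HepG2 and DCN at 544 TPM in BJ. SK-Mel 24 was high for the markers chosen for it, SOX10 (252 TPM) and S100B (7822 TPM). PMEL and MLANA, chosen as markers for SK-Mel 28 alone, were low in SK-Mel 24, with 3.10 TPM of PMEL and at most 1.30 of MLANA. RT4, labelled kidney, had 163 TPM of UPK2, a protein of the bladder lining. All 3 markers looked for in A549 were under 1 TPM (NAPSA 0.877, SFTPB 0.192, NKX2-1 0.0135). The other two lines were mixed: U251 had 125 TPM of FABP7, 3.12 of GFAP and 0.00726 of OLIG2, and U2-OS had 12.2 TPM of RUNX2, 3.47 of ALPL and 0.202 of BGLAP, each of the 3 higher in some other line.

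All 10 genes differed among the 9 lines (edgeR quasi-likelihood F test, adjusted p from 7.03e-06 for CDK4 to 1.49e-16 for CCND2). So did 98.3% of all genes tested, so the test does not set these genes apart. They differed in how far they ranged. CDK4 varied least, 2.61-fold between the highest and the lowest line mean, and only 12.0% of the 13495 expressed genes had a smaller range. RB1 ranged 4.00-fold (30.6% of genes had less) and CCND1 4.04-fold (31.0%). CCND3 ranged 8.51-fold, CCNE1 15.2-fold, CDK2 16.9-fold, CCNE2 17.8-fold and CDK6 115-fold. CCND2 and CDKN2C were at 0 counts in 1 line each. Without HepG2 the ranges of CCND3 and CDK2 shrank to 4.49-fold and 7.90-fold. In bulk RNA, fewer cells with a transcript and less of it per cell cannot be told apart.

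**Figure D1:**
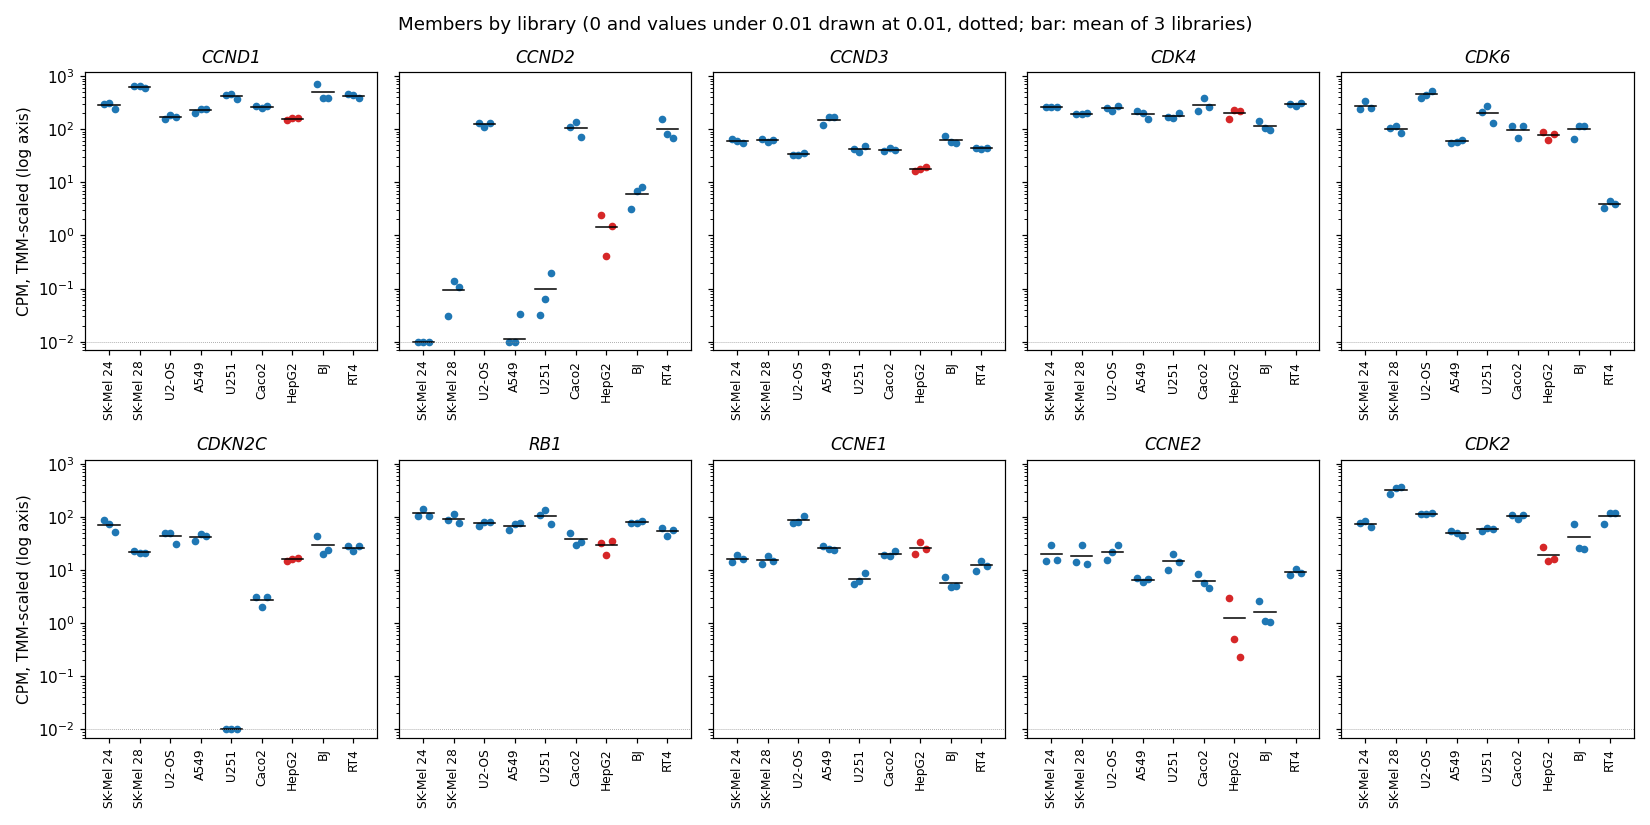
CPM on a log axis for each of the 10 genes, with 1 point per library and a bar at the mean of 3 libraries; HepG2 is in red, and values under 0.01 are drawn at 0.01. CDK4 lies in a narrow band across the lines, whereas CCND2 and CDKN2C fall to 0 counts and CDK6 falls to 3.95 CPM in RT4.

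CCND1 (chromosome 11, 69641087 to 69654474, plus strand, GENCODE 29 on GRCh38) encodes cyclin D1, the D-type cyclin most often amplified in tumours. Per length (TPM) it was the leading D-type cyclin in 8 of the 9 lines. SK-Mel 28 had 653.5, 654.7 and 584.8 CPM, and BJ had 709.6, 391.5 and 390.6 CPM. The libraries of these lines overlapped because BJ replicate 1 stood above all others while its other replicates lay near RT4 and U251. Means fell from 631 ± 40.0 CPM (SD, n = 3) in SK-Mel 28 through 497 ± 184 in BJ, 428 ± 48.2 in U251 and 427 ± 35.4 in RT4, neighbours that did not separate. A gap followed to SK-Mel 24 (285 ± 36.9) and Caco2 (264 ± 15.7), a further gap to A549 (225.7 ± 20.9), and another to U2-OS (169 ± 13.3) and HepG2 (156 ± 5.57). Against the mean of the other 8 lines, SK-Mel 28 had more CCND1 (log2 fold change 1.16 ± 0.12 SE, edgeR adjusted p = 7.32e-09) and HepG2 had less (-1.10 ± 0.15, adjusted p = 2.9e-07). A gene was called higher or lower in a line when its adjusted p was below 0.05 and its level differed by 1 log2 unit (2-fold) or more. The SK-Mel 28 call was lost with the number after P in the sample titles as a term (0.95). That of HepG2 was lost with DESeq2, as a test or for its size factors alone (-0.999 in both), and with protein-coding transcripts alone (-0.89). The last exon of CCND1 shares 497 of 4830 exonic bases with LTO1 on the opposite strand, so reads there are uncertain where strand was not used in counting. LTO1 did not exceed 28.8 TPM in any library.

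CCND2 (chromosome 12, 4273772 to 4305350, plus strand) encodes cyclin D2, and it was either present or all but absent. U2-OS had 132.3, 111.9 and 128.2 CPM, Caco2 110.3, 135.1 and 71.02, and RT4 155.1, 79.93 and 67.49. These 3 lines overlapped one another, and every one of their libraries lay above all libraries of the other 6 lines. BJ followed with 3.121, 6.995 and 8.318 CPM and HepG2 with 2.424, 0.4178 and 1.533 CPM. U251 and SK-Mel 28 each held 7 counts over 3 libraries and A549 held 1 count. SK-Mel 24 had 0 counts, where 3 counts over its libraries would be 0.0416 CPM, so U2-OS (124 ± 10.8 CPM) was at least 2980-fold higher. This floor covers counting error only. The fitted fold changes of CCND2 depend on how the lines at 0 are treated: in BJ the value was 2.57 (edgeR), but it was 0.42 and no longer called with limma on log2(TPM + 0.1) and -0.71 on log2(TPM + 1). The call of a lower CCND2 in SK-Mel 24 was lost without A549 replicate 3, the library with the single count, because A549 was then at 0 counts too and the fold change could not be fitted with a usable error. In CCND2, 989 of 7157 exonic bases are shared with AC008012.1, which has no values of its own here.

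CCND3 (chromosome 6, 41934933 to 42050357, minus strand) encodes cyclin D3, and A549 stood out. Its libraries had 118.5, 169.0 and 166.6 CPM, whereas the highest library elsewhere, BJ replicate 1, had 75.53 CPM. A549 was higher than each other line (largest of 8 one-sided edgeR tests, adjusted p = 2.78e-06, margin over the next line 1.27 log2 units). Across all genes, 30.1% were higher in 1 line than in each other. BJ, SK-Mel 28 and SK-Mel 24 formed a band at 63.0, 61.8 and 60.3 CPM, and RT4, U251 and Caco2 a band at 43.4, 42.4 and 40.7 CPM. U2-OS lay below these at 33.7 ± 1.83 CPM. HepG2, with 16.00, 17.88 and 19.47 CPM, was lower than each other line (adjusted p = 7.72e-05, margin 0.92), as were 17.3% of genes in some line.

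RefSeq gives 3 start windows for CCND3. The 2 upstream ones, called proximal and distal here, are shown because the transcripts that start in them carried unequal shares. The window not shown has its start at 41939205, farther downstream, and holds 0 GC boxes. The windows run from 250 bases before to 50 after the start (RefSeq, GRCh38.p14, minus strand, 5′ to 3′). Capitals mark GC boxes (GGGCGG on either strand, overlapping matches counted separately), which 45.0% of 35116 promoters of this length hold.

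CCND3 proximal start, chr6:41941759-41942058: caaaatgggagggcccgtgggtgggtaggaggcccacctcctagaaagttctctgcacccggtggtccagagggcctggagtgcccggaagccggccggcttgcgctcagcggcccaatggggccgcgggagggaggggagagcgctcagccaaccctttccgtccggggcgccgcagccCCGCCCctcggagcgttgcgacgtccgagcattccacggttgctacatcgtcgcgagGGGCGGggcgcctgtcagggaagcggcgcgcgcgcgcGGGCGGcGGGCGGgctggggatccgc
CCND3 distal start, chr6:42048639-42048938: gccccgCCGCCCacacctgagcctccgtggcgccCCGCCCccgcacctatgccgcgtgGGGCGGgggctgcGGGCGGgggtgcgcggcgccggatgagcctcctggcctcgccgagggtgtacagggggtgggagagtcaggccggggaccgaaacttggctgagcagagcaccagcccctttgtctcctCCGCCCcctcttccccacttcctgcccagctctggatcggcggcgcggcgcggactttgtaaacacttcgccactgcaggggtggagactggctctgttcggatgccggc

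Both printed windows are rich in G and C (73.7% and 72.3%, against a median of 58.7% over all promoters), with 4 and 5 GC boxes. Transcripts are named by their Ensembl IDs. ENST00000372991, which starts at 41941848 inside the proximal window, carried 62.6% to 82.6% of CCND3 TPM in the 8 lines other than HepG2. ENST00000415497 starts inside the distal window and carried 1.10% to 6.94% there. In HepG2 it had 0.000309 TPM in replicate 1 but 3.72 and 4.41 TPM in replicates 2 and 3, which was 70.0% and 75.1% of CCND3. Replicate 1 of HepG2, the library with the highest mitochondrial share, held 90.3% as ENST00000372991. At these levels the HepG2 split rests on 132 to 254 counts per library.

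Within the D-type cyclins both the mix and the sum differed between lines. In TPM, CCND1 made up 82.1% ± 1.04 of the family in SK-Mel 28 and 81.5% ± 3.55 in U251. In A549 it made up 39.4% ± 3.07, where CCND3 held 60.6%, the one line led by CCND3 per length. In estimated counts, which are not scaled to length, CCND1 led there too, with 60.1%. U2-OS was the most even, with 51.2% CCND1, 25.1% CCND2 and 23.8% CCND3. CCND2 contributed 18.1% ± 5.37 in Caco2 and 10.6% ± 4.07 in RT4. The summed TPM of the family ran from 150 ± 3.41 in U2-OS to 291 ± 13.9 in SK-Mel 28 over the 8 lines other than HepG2, and was 19.2 ± 9.16 in HepG2.

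**Figure D2:**
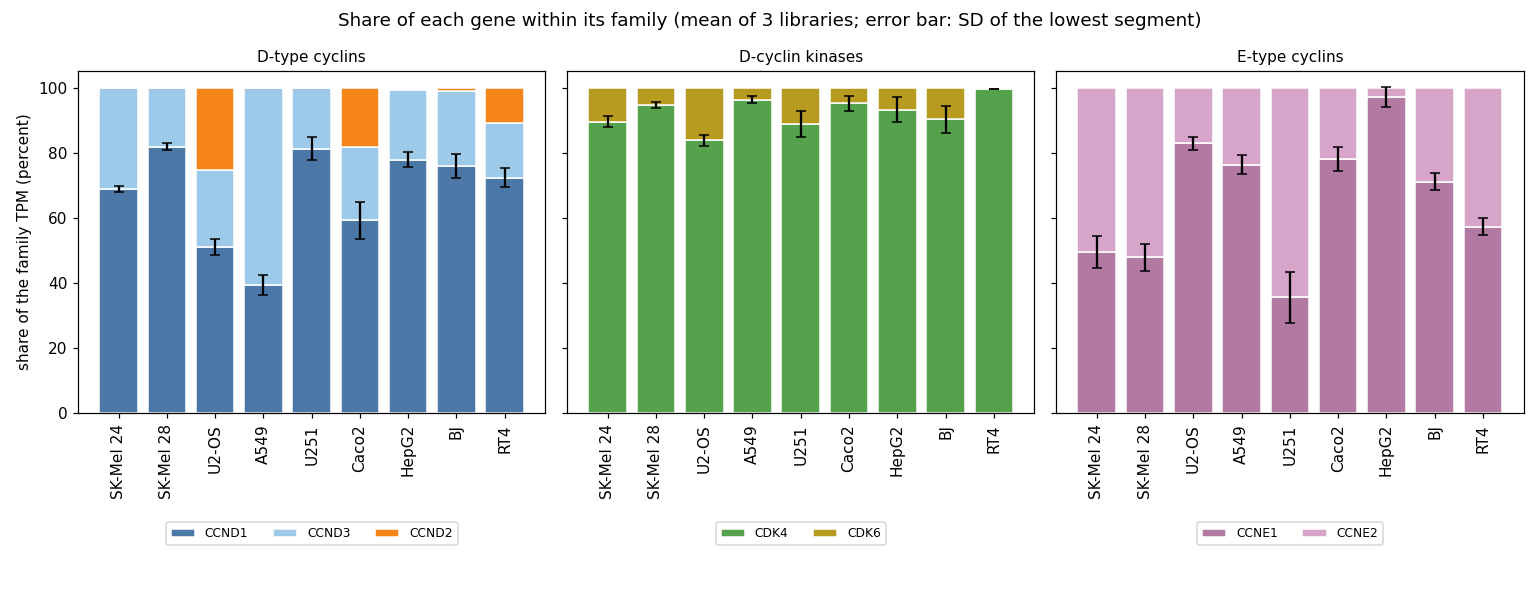
Share of each gene in the summed TPM of its family for the 9 lines, as stacked bars of the mean of 3 libraries, with the SD of the lowest segment as error bar. On this scale CCND3 leads the D-type cyclins in A549 alone, CDK4 leads its family in every line, and the CCNE1 share runs from 35.7% in U251 to 97.3% in HepG2.

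CDK4 (chromosome 12, 57747727 to 57756013, minus strand) encodes the kinase partner found with D-type cyclins in most cells. It was the most abundant of the 10 genes per length, with a median over lines of 270 TPM. Means ran without a gap from 295 ± 19.5 CPM in RT4 and 290 ± 84.0 in Caco2 down to 177 ± 19.7 in U251. BJ lay apart below, with 139.7, 103.5 and 96.39 CPM, and every other library had at least 157.6 CPM. BJ was called lower (log2 fold change -1.01 ± 0.15, edgeR adjusted p = 3.68e-06). That call sits on the fold threshold and was lost without BJ replicate 2 (-0.95), BJ replicate 3 (-0.91) or Caco2 replicate 2 (-0.95). CDK4 shares 1369 of its 3168 exonic bases with TSPAN31 on the opposite strand, which did not exceed 75.8 TPM in any library, so the split of reads between the 2 genes is uncertain.

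The transcripts behind CDK4 differed in HepG2. ENST00000257904 led in each of the other 8 lines with 39.5% to 67.8% of CDK4 TPM, followed by ENST00000547281 in 6 of them. ENST00000312990 stayed at or below 0.150 TPM on average in those lines, but in HepG2 it had 0.171, 51.7 and 44.4 TPM in replicates 1, 2 and 3. ENST00000546489 and ENST00000547281 were listed at 0 in all 3 HepG2 libraries.

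CDK6 (chromosome 7, 92604921 to 92836594, minus strand) encodes the second D-cyclin kinase. It had the widest range among the genes that every line expressed. U2-OS had 381.6, 447.2 and 533.7 CPM, above every other library, followed by SK-Mel 24 with 244.5, 344.7 and 247.2 CPM. U251 libraries were spread from 131.6 to 271.3 CPM. SK-Mel 28, BJ, Caco2, HepG2 and A549 overlapped between 56.01 and 117.4 CPM. RT4 had 3.340, 4.545 and 3.972 CPM and was lower than each other line (adjusted p = 3.58e-10, margin 3.91 log2 units). Against the mean of the other lines, CDK6 was higher in U2-OS (log2 fold change 2.60 ± 0.15), SK-Mel 24 (1.80 ± 0.16) and U251 (1.30 ± 0.17), with edgeR adjusted p from 4.04e-07 to 1.98e-13. The margin of U2-OS over SK-Mel 24, 0.70 log2 units, did not pass the test against each other line (adjusted p = 0.124).

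The windows at the 2 RefSeq starts of CDK6 are printed because the starts carried very unequal shares. Capitals mark GC boxes, E-boxes (CACGTG, a palindrome) and the core of the cyclic AMP response element, or CRE core (TGACG on either strand).

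CDK6 proximal start, chr7:92833910-92834209: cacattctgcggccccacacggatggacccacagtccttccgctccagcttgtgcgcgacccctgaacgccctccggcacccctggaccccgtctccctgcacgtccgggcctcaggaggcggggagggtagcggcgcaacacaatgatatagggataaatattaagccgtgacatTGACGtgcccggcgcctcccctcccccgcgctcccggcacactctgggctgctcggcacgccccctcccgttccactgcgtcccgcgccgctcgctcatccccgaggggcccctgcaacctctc
CDK6 distal start, chr7:92836524-92836823: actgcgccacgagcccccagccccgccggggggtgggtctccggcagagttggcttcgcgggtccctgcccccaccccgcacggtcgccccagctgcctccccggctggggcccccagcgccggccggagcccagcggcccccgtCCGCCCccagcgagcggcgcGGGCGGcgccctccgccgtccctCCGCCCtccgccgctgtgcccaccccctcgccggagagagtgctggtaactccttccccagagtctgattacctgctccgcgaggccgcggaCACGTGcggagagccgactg

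The proximal window holds no GC box and 1 CRE core, and the distal window holds 3 GC boxes and 1 E-box. Over all promoters of this length, 24.6% hold the CRE core and 7.26% an E-box. An E2F word (TTTNNCGC with C or G at each N), found in 3.32% of promoters, is in none of the 11 windows searched. These windows belong to 6 of the genes, and CCNE2 was not searched. The single RB1 window among the 11 has its start site at 48476450, inside the gene and not at its annotated start. A match of letters is a description and not a binding site. ENST00000265734, which starts at 92833917 in the proximal window, carried 89.3% to 96.6% of CDK6 TPM in the 8 lines other than RT4. ENST00000424848, from the distal window, held 6.15% in SK-Mel 24, 5.30% in U251, 5.20% in U2-OS and 4.99% in SK-Mel 28, against at most 1.53% in the other 5 lines. In RT4 ENST00000265734 was at 0.429 TPM and ENST00000424848 was listed at 0.

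Per length, CDK4 exceeded CDK6 in every line. In estimated counts, which are not scaled to length, CDK6 led in U2-OS, U251 and SK-Mel 24, where CDK4 made up 35.5%, 47.4% and 48.5%. On that scale CDK4 led in the other lines, from 53.4% in BJ to 98.7% in RT4. CDK4 made up 99.8% ± 0.0415 of the CDK4 and CDK6 TPM in RT4, 96.6% ± 1.09 in A549 and 84.1% ± 1.72 in U2-OS, where the summed level was the highest of the 9 lines (475 ± 48.2 TPM). The sum was 126 ± 29.8 TPM in BJ and 54.4 ± 31.4 in HepG2, and between 256 and 402 TPM in the other 6 lines.

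CDKN2C (chromosome 1, 50960745 to 50974633, plus strand) encodes p18, an INK4 inhibitor of CDK4 and CDK6. It had 0 counts in all 3 U251 libraries. A count of 0 in these libraries allows up to 0.0364 CPM (3 counts), so Caco2, the next lowest line with 3.122, 1.985 and 3.135 CPM, was at least 75.6-fold higher, and SK-Mel 24, the highest, at least 1930-fold. U251 was lower than each other line (edgeR adjusted p = 3.6e-09). SK-Mel 24 had 85.78, 73.25 and 51.17 CPM, which lay above every other library. U2-OS (43.3 ± 10.1), A549 (41.8 ± 6.25), BJ (29.3 ± 12.8), RT4 (26.4 ± 3.46) and SK-Mel 28 (21.6 ± 1.17) followed without a gap, and HepG2 (16.1 ± 1.13) and Caco2 (2.75 ± 0.66) each lay apart below. Because U251 at 0 lowers the mean of the other lines, 6 lines were called higher. With U251 left out, an alternative added after the data were seen, SK-Mel 24 (1.80) and U2-OS (1.00) kept the call, A549 (0.94), BJ (0.35) and RT4 (0.19) lost it, and SK-Mel 28 turned to -0.14.

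The gene next to CDKN2C shared this pattern in U251. FAF1, which encodes a ubiquitin-binding adaptor, lies 0.5 kb away and had 9, 10 and 9 counts in the U251 libraries (0.287, 0.324 and 0.443 CPM), whereas every other library had at least 50.91 CPM. Its log2 fold change in U251 was -7.70 and called lower. On the other side RNF11, 262 kb away, was called higher in U251 (log2 fold change 1.01, 134 TPM) and EPS15, 379.6 kb away, had 26.2 TPM there (log2 fold change 0.20). TTC39A, between them, was called lower in U251 (-1.28) and varied widely among the lines. DMRTA2 and AGBL4, farther out on the FAF1 side, were listed at 0 in U251, but also in at least 2 other lines each. The genome of the line was not measured here.

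**Figure D3:**
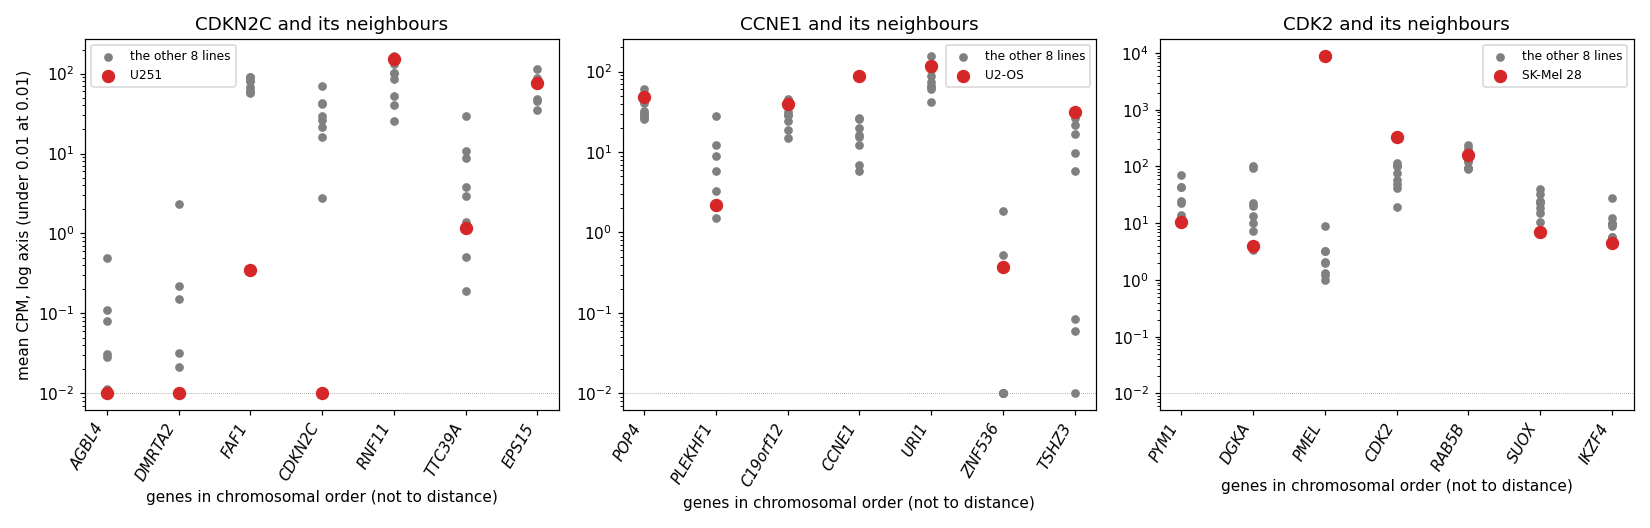
Mean CPM on a log axis (values under 0.01 at 0.01) for CDKN2C, CCNE1 and CDK2, each with the 3 nearest tested protein-coding genes on either side in chromosomal order. Red marks the line that stands out: in U251 FAF1 lies below all other lines as CDKN2C does, in U2-OS CCNE1 stands above all other lines, and in SK-Mel 28 PMEL and CDK2 both do.

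The window at the start used by ENST00000396148 is shown with its GC boxes and a TGACG core in capitals.

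CDKN2C, chr1:50968456-50968755: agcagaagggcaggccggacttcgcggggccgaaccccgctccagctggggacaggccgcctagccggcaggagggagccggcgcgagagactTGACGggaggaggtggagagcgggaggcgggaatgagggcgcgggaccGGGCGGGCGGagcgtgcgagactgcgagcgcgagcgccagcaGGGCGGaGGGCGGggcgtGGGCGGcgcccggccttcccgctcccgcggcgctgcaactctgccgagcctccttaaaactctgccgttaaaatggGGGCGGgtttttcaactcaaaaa

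It holds 6 GC boxes, of which 2 overlap, and 71.3% G and C. ENST00000396148 carried 47.7% to 69.8% of the gene's TPM in 7 of the 8 lines with counts. ENST00000371761, which starts downstream at 50969944, led in BJ (66.6% ± 13.1, against 32.0% from ENST00000396148) and in A549 (51.9% ± 7.18, against 47.7%). In BJ the shares of these transcripts did not overlap between libraries (51.8% to 76.5% against 22.6% to 47.7%). In A549 they did (43.7% to 56.5% against 43.0% to 56.0%).

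The other inhibitors were given for context, as a list of 6 genes. CDKN2A, the INK4 gene most often lost in tumours, had 0 counts in A549, RT4 and U251 and 1 count each in SK-Mel 24 and U2-OS. It reached 78.9 ± 15.5 TPM in SK-Mel 28, 14.4 ± 2.95 in Caco2, 6.10 ± 0.27 in BJ and 2.04 ± 1.35 in HepG2. CDKN2B beside it had 0 counts in A549, RT4, U251 and SK-Mel 24, and 19.1 ± 1.18 TPM in SK-Mel 28. U251 was thus at 0 counts for 3 of the 4 INK4 genes, while its CDKN2D level was called higher (24.7 ± 2.90 TPM, log2 fold change 1.49). CDKN1A, the p21 inhibitor and a target of p53, stood at 622 ± 84.4 TPM in BJ (log2 fold change 4.13), against 10.1 to 123 TPM in the other lines. CDKN1B was called higher in Caco2 (56.5 ± 25.6 TPM) and lower in SK-Mel 28 (14.1 ± 2.39 TPM). Over the 9 lines, 18 of the 54 gene and line pairs of the list were called higher (33.3%, against 20.3% over all genes) and 9 lower (16.7%, against 13.6%). Lines at 0 counts of CDKN2A or CDKN2B lower the mean against which the other lines are set, which can add higher calls. The part of this in the 33.3% was not tested.

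RB1 (chromosome 13, 48303726 to 48599436, plus strand) encodes the pocket protein on which the kinases act. It was expressed in every library. Means ran from 117 ± 23.1 CPM in SK-Mel 24 and 105 ± 30.1 in U251 through 92.4 ± 20.7 in SK-Mel 28, 79.2 ± 3.93 in BJ, 76.4 ± 7.09 in U2-OS, 68.7 ± 11.2 in A549, 53.9 ± 9.44 in RT4 and 38.2 ± 10.9 in Caco2 to 29.2 ± 8.50 in HepG2. No line separated from its neighbour in this order. Of the 9 contrasts with the other lines, HepG2 passed (-1.36 ± 0.20, edgeR adjusted p = 2.31e-06). SK-Mel 24 (0.89 ± 0.17, adjusted p = 6.43e-05) and Caco2 (-0.92 ± 0.20, adjusted p = 0.00027) fell short of the fold. ENST00000267163 carried 88.2% or more of RB1 TPM in each line. Messenger RNA levels do not show whether the protein is intact.

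CCNE1 (chromosome 19, 29811898 to 29824308, plus strand) encodes cyclin E1, and U2-OS stood out. Its libraries had 77.35, 80.76 and 103.5 CPM, while the highest library elsewhere, HepG2 replicate 2, had 34.10 CPM. U2-OS was higher than each other line (edgeR adjusted p = 7.38e-06, margin 1.73 log2 units). HepG2 (26.2 ± 7.24) and A549 (25.6 ± 2.72) came next, then Caco2, SK-Mel 24, SK-Mel 28 and RT4 between 20.2 and 12.2 CPM. U251 had 5.589, 6.311 and 8.770 CPM and BJ 7.324, 4.786 and 5.126 CPM, overlapping each other and below all other lines. Both were called lower (U251 -1.51 ± 0.19, BJ -1.80 ± 0.20, edgeR adjusted p = 3.08e-07 and 2.09e-08). Of its nearest neighbours in U2-OS, C19orf12 (0.52), URI1 (0.61) and POP4 (0.54) were not called, and PLEKHF1 was called lower (-1.21). ZNF536 (4.27) and TSHZ3 (4.42), 404 and 1450.6 kb away, were called higher in U2-OS, and ZNF536 in 2 other lines and TSHZ3 in 5.

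The RefSeq window of CCNE1, a gene known as an E2F target, is printed with its 7 GC boxes in capitals.

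CCNE1, chr19:29811741-29812040: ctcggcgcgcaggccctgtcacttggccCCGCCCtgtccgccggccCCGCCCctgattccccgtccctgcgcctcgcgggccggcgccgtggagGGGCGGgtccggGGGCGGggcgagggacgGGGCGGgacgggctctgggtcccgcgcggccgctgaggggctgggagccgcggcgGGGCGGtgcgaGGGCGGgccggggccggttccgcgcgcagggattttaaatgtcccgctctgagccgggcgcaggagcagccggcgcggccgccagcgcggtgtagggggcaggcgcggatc

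With 81.0% G and C, more than 98.2% of promoters of this length, it holds no match to the E2F word searched. ENST00000262643 starts at 29811898 inside the window. The leading transcript in the 8 lines other than HepG2 was ENST00000444983, which starts downstream at 29812654 and carried 39.2% (Caco2) to 76.0% (U2-OS, 81.4 TPM) of CCNE1. In HepG2 ENST00000444983 was listed at 0 in all 3 libraries. There ENST00000574121, a transcript with a retained intron, carried 85.0%, 62.2% and 73.1% of CCNE1 TPM in replicates 1, 2 and 3, against at most 7.85% on average in any other line. Most CCNE1 TPM of HepG2 was thus assigned to a form annotated as noncoding.

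**Figure D4:**
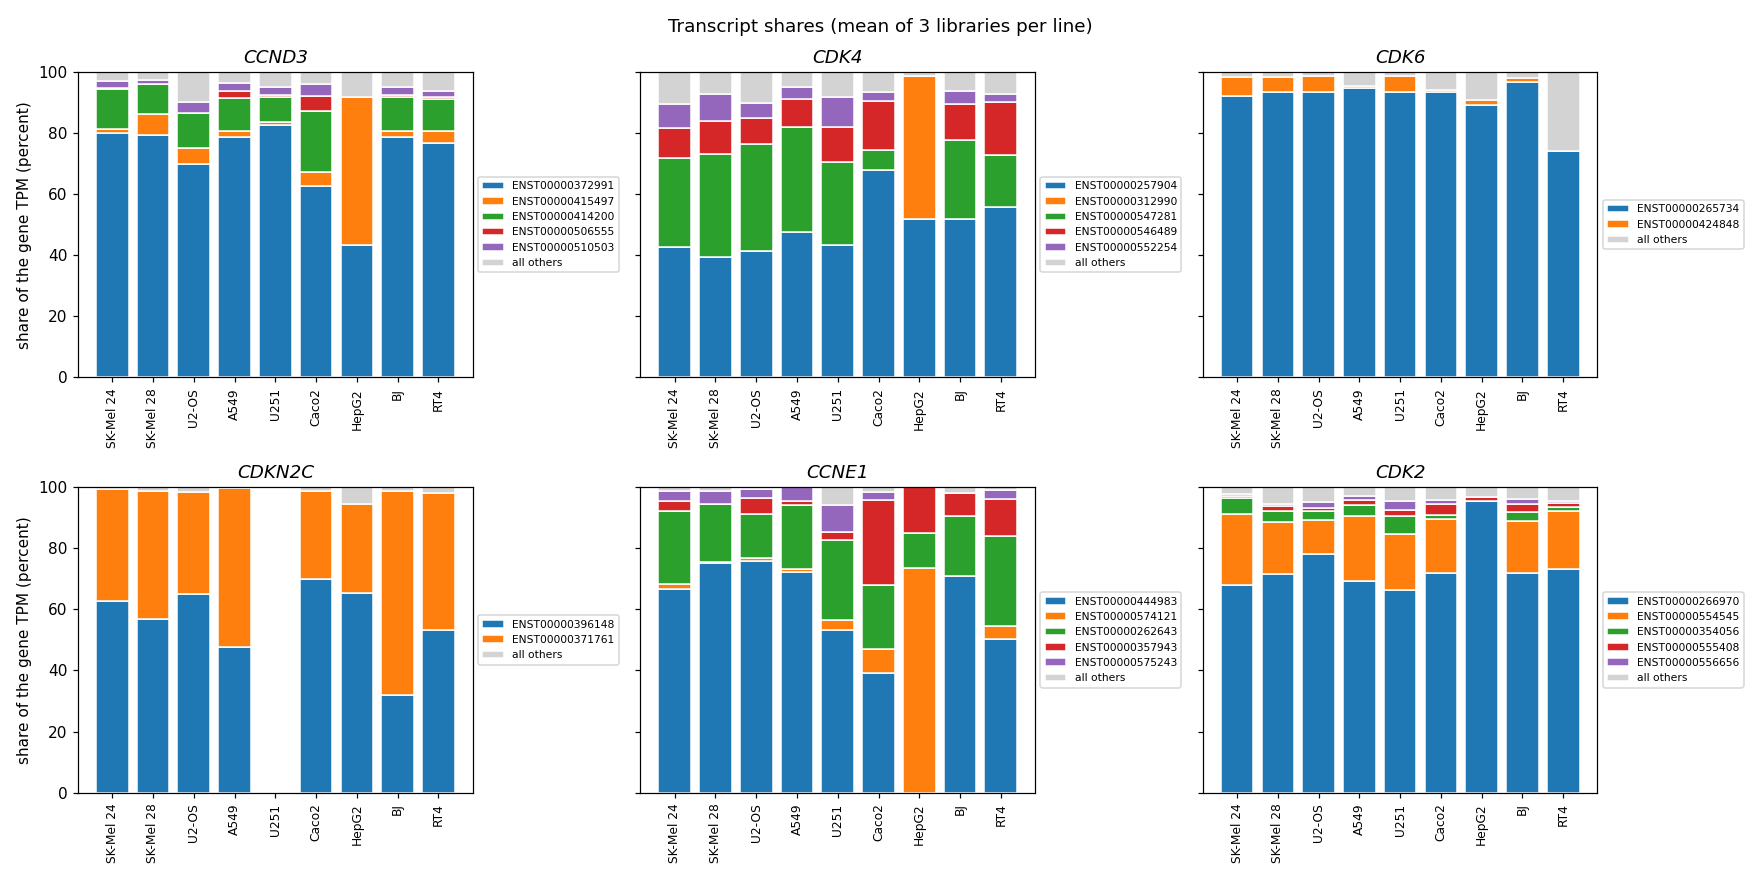
Share of each transcript in the TPM of its gene, as stacked bars of the mean of 3 libraries for the 9 lines, with up to 5 transcripts named and the rest in grey; U251 has no bar for CDKN2C, which had 0 counts. HepG2 differs from the other lines in ENST00000415497 (CCND3), ENST00000312990 (CDK4) and ENST00000574121 (CCNE1), and ENST00000371761 (CDKN2C) leads in BJ and A549.

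CCNE2 (minus strand of chromosome 8) encodes cyclin E2. It was lower than CCNE1 per length in 6 lines and the 2 genes were near even in SK-Mel 24 and SK-Mel 28. U2-OS had 15.82, 21.89 and 29.28 CPM, SK-Mel 24 15.13, 29.68 and 15.25, SK-Mel 28 14.02, 29.21 and 13.20, and U251 10.06, 20.03 and 14.24. These 4 lines overlapped and were called higher, with log2 fold changes of 1.75, 1.58, 1.48 and 1.08. The U251 call was lost without U251 replicate 2 (0.80), without HepG2 (0.70), with the P number as a term (0.92, adjusted p = 0.0545) and with limma on log2(TPM + 1) (0.92). RT4 lay at 9.12 ± 1.15 CPM, A549 at 6.63 ± 0.66 and Caco2 at 6.26 ± 1.95. BJ had 2.611, 1.104 and 1.064 CPM, and HepG2 3.030, 0.5014 and 0.2300 CPM, the latter from 25, 6 and 3 counts. Both were called lower (BJ -2.56 ± 0.45, HepG2 -3.11 ± 0.51, edgeR adjusted p = 2.98e-05 and 7.09e-06). CCNE2 shares 1629 of 4397 exonic bases with INTS8 on the opposite strand, whose highest library had 58.8 TPM, so its low values are uncertain.

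Per length, CCNE1 made up 83.1% ± 1.93 of the E-type cyclins in U2-OS, 49.7% ± 5.03 in SK-Mel 24, 48.0% ± 4.10 in SK-Mel 28 and 35.7% ± 7.85 in U251, where CCNE2 led. U2-OS had the highest sum, 128 ± 17.9 TPM, and BJ the lowest, 6.71 ± 1.89, below HepG2 with 8.69 ± 4.93. The other 6 lines lay between 17.9 and 35.8 TPM.

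CDK2 (chromosome 12, 55966769 to 55972784, plus strand) encodes the kinase of the E-type cyclins, and SK-Mel 28 stood out. Its libraries had 274.9, 345.8 and 360.4 CPM, while no other library exceeded 118.6 CPM. SK-Mel 28 was higher than each other line (edgeR adjusted p = 0.000794, margin 1.52 log2 units, log2 fold change 2.40 ± 0.18 against their mean). SK-Mel 24, the other skin line, had 77.83, 84.11 and 63.97 CPM. U2-OS, RT4 and Caco2 lay between 114 and 102 CPM on average, and U251 and A549 at 58.8 and 49.7. BJ was split, with 73.49 CPM in replicate 1 and 26.14 and 24.62 CPM in the others. HepG2 had 27.15, 15.13 and 15.94 CPM and was lower than each other line (adjusted p = 0.00978). That result was lost without BJ replicate 1 (adjusted p = 0.342), without HepG2 replicate 2 (0.0671) or 3 (0.0571), and with protein-coding transcripts alone (0.0713).

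A very abundant gene overlaps CDK2. PMEL, a pigment cell protein on the opposite strand, shares 89 of the 3894 exonic bases of CDK2 and had 7508, 7947 and 11380 CPM in SK-Mel 28, against at most 11.91 CPM in the libraries of the other lines. The antisense gene AC025162.1 shares 565 bases and has no values here. If reads were assigned without strand, PMEL reads could enter CDK2 at the shared bases, and whether strand was used is not given in the sources used here. ENST00000554545, which shares 23 of its 445 bases with other genes, was at 54.4 ± 33.4 TPM in SK-Mel 28 and at 0 to 18.8 TPM on average elsewhere. ENST00000556276, which shares 193 of 665, was at 7.20 ± 2.07 TPM in SK-Mel 28, at 0.206 in U251 and listed at 0 in the other 7 lines. The main coding transcript, ENST00000266970, which shares 376 of 2296, was at 215 TPM in SK-Mel 28 and at most 91.2 TPM elsewhere, and its share there (71.7%) lay within the 66.2% to 95.4% of the other lines. RAB5B, 1.1 kb downstream of CDK2, was not called in SK-Mel 28 (0.22), and SUOX (-1.61) and DGKA (-2.22) were called lower.

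Read line by line, U2-OS had the most of these genes called higher: 5 of 10 (CCND2, CDK6, CDKN2C, CCNE1, CCNE2), where 25.3% of all genes were, and 0 lower (10.9%). SK-Mel 28 had 4 higher (20.3%) and 0 lower (13.4%), and SK-Mel 24 3 higher (19.0%) and 1 lower (11.2%). In A549 2 were higher (18.4%) and 0 lower (10.8%), in Caco2 1 was higher (19.8%) and 0 lower (13.9%), and in RT4 2 were higher (18.6%) and 1 lower (14.2%). U251 had 2 higher (15.0%) and 2 lower (11.6%), and BJ 2 higher (20.1%) and 3 lower (13.1%). The fits of CCND2 in A549 (log2 fold change -6.94), SK-Mel 28 (-4.25) and U251 (-4.28) and of CDKN2C in Caco2 (-1.95) had no usable error. These pairs could not be called lower, so these lines, and the sum over pairs, can have too few lower calls. Higher calls of CCND2 and CDKN2C can be too many, because a line at 0 counts lowers the mean of the others. With U251 left out, the CDKN2C calls in A549, BJ and RT4 were lost and SK-Mel 28 turned to -0.14. CCND2 in BJ turned to -0.71 with limma on log2(TPM + 1). HepG2 had 0 higher (25.8%) and 5 lower (23.5%): CCND1, CCND3, RB1, CCNE2 and CDK2. The median log2 fold change of the 10 genes was 1.22 in U2-OS, where that of all genes was 0.13, and -0.69 in HepG2, against -0.17. Summed over the 90 pairs of gene and line, 21 were called higher (23.3%) and 12 lower (13.3%), close to the shares of all such pairs, 20.3% and 13.6%. In the order of levels, 26 of 80 adjacent pairs of lines had libraries that did not overlap (26.7% of such pairs over all genes). These contrasts share the other lines as their reference, and 5 of the 12 lower calls rest on HepG2.

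**Figure D5:**
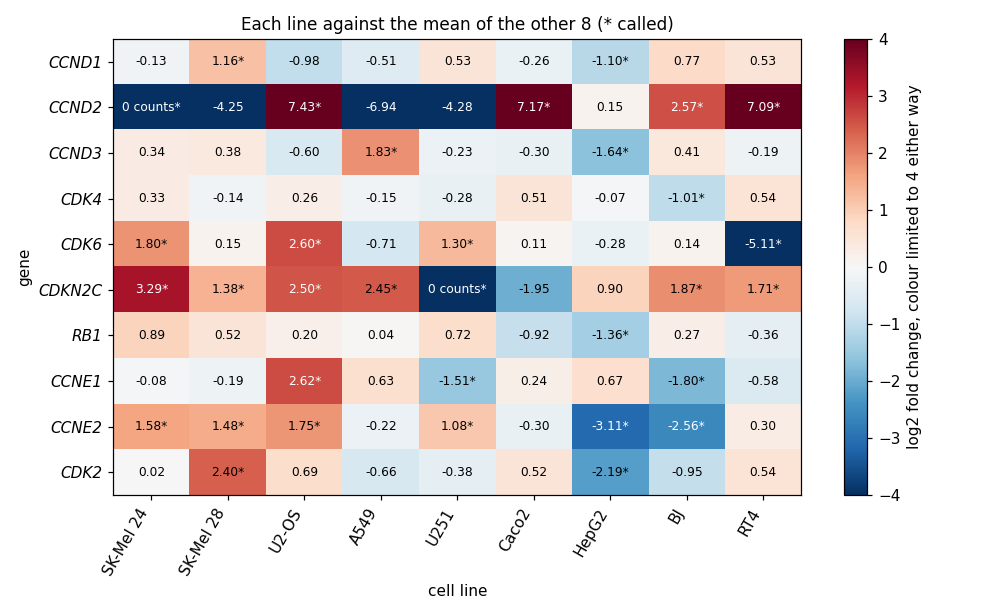
Log2 fold change of each of the 10 genes (rows) in each line (columns) against the mean of the other 8 lines, with colour limited to 4 either way, an asterisk where called, and "0 counts" where a line had none. U2-OS has 5 asterisks in red and HepG2 5 in blue, while the CDK4 row has 1, in BJ.

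The genes downstream of the switch were read from a list of 23 E2F targets of G1/S, none of them among the 10 genes. In BJ, 20 of the 23 were called lower, where 13.1% of all genes were (median log2 fold change -1.73, all genes -0.05). BJ was also the line with the lowest CDK4 in CPM and the highest CDKN1A. In TPM, HepG2 had less CDK4 than BJ (51.6 against 115). The E-type cyclin sum in TPM was lowest in BJ (6.71 ± 1.89), within the spread of HepG2 (8.69 ± 4.93) on that lowered scale. In CPM, BJ had 5.75 of CCNE1 and 1.59 of CCNE2, and HepG2 had 26.2 and 1.25. The mean level of the targets, as log2(CPM + 1), was 5.57, 3.70 and 3.25 in the BJ libraries and between 5.85 and 6.90 in all 24 others. BJ replicate 1, which had the most E2F target RNA of that line, was also its highest library for CCND1, CCND3, CDK4, CDKN2C, CCNE1, CCNE2 and CDK2, and its lowest for CCND2, CDK6 and RB1. In U2-OS 7 were called higher and 0 lower, near the 25.3% of all genes called higher there (median 0.70, all genes 0.13), with TYMS, a thymidylate synthase, at 926 ± 84.5 TPM and POLE2, a DNA polymerase subunit, at 71.7 ± 12.3 TPM. In HepG2 4 targets were higher and 4 lower, where 25.8% and 23.5% of all genes were. Over all lines, 19 of 207 pairs of target and line were higher (9.18%, all genes 20.3%) and 28 lower (13.5%, all genes 13.6%), and 20 of those 28 were in BJ.

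The remaining lists are read against the same shares of all gene and line pairs, 20.3% higher and 13.6% lower. Of the 12 pocket protein and E2F/DP genes, 6 were called lower in BJ (E2F7 -2.94, E2F2 -2.87, E2F8 -2.57) and 0 higher, and E2F7 was called higher in U251 (2.18) and U2-OS (2.12). Over the lines, 11 of 108 pairs were higher (10.2%) and 13 lower (12.0%). The 8 MuvB genes and partners take part in the control of cell cycle genes. In U2-OS 4 of them were higher and 1 lower (MYBL2 2.08, FOXM1 1.46). In BJ 0 were higher and 3 lower (MYBL2 -2.29, LIN9 -2.28), and in HepG2 3 were higher and 1 lower (FOXM1 -2.14). In all, 10 of 72 pairs were higher (13.9%) and 8 lower (11.1%). The turnover genes of cyclins and inhibitors had 5 of 90 pairs higher (5.56%) and 11 lower (12.2%). The largest higher calls were FBXO31 in HepG2 (2.80), an F-box gene linked to cyclin D1 turnover, and FBXW7 in HepG2 (1.74), which targets cyclin E. The largest lower ones were CKS1B in HepG2 (-1.83), a partner of the p27 ligase, and CUL1 in U2-OS (-1.71), its scaffold. The kinases and phosphatases that set CDK activity had 7 of 72 pairs higher (9.72%) and 6 lower (8.33%). CDK7, the CDK-activating kinase, was higher in HepG2 (1.94) and lower in SK-Mel 24 (-2.54), and CDC25B was higher in A549 (1.79) and lower in RT4 (-2.10). Among the other interphase CDKs and cyclins, 18 of 90 pairs were higher (20.0%) and 10 lower (11.1%). CCNA1 was higher in SK-Mel 28 (7.40) and lower in RT4, where it had 0 counts. CDK14 was higher in U2-OS (5.25) and lower in HepG2 (-6.87, from 4 counts).

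Across the 9 line means, on the log2(CPM + 1) scale, 3 of the 45 pairs of these genes had a Pearson r beyond 0.6 either way: CCND1 with CCNE1 (-0.77, and -0.80 without HepG2), CCNE2 with CDK2 (0.74, 0.58) and RB1 with CCNE2 (0.66, 0.43). Without HepG2 only the first of these stayed beyond 0.6, and 2 other pairs passed it, CCND2 with RB1 (-0.74) and CCND2 with CCND3 (-0.63). These values describe 9 points that share the same libraries and carry no test. The genes whose pattern was most like each member, out of 13030, were PDE4DIP for CCND1 (0.96), MPP7 for CCND2 (0.94), PRPS1 for CCND3 (0.95), TLE3 for CDK4 (0.94) and MAPK8IP1 for CDK6 (0.96). For the others they were LY6E for CDKN2C (0.91), ERI3 for RB1 (0.98), USP6NL for CCNE1 (0.90), PARP1 for CCNE2 (0.98) and RCHY1 for CDK2 (0.98). With so many genes and 9 lines, high values arise readily. The median r with the 23 E2F targets was highest for CDK4 (0.60), CCNE2 (0.50) and CCNE1 (0.49), and lowest for CCND1 (-0.31). BJ was the lowest line for the mean level of these targets, and in CPM for CDK4 and CCNE1. These values were not computed without BJ, so its part in them was not tested.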

How the data were processed

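RNA of 9 cell lines was poly-A selected and made into strand-specific libraries, per the labels' protocols. Tools named in the submitters' processing notes are kallisto 0.43.1 and CASAVA 1.8, with GRCh 38 as build. No release of the transcript index and no strand setting is stated there. Per the file headers, the authors' deposited tables give an estimated count and a TPM for each of 176241 transcripts. Of these, 159887 matched GENCODE 29, and the unmatched transcripts held 0.745% to 3.06% of the counts per library. Gene values are the rounded sum of estimated counts, and the sum of TPM, over matched transcripts.

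The test of gene counts was that of edgeR 4.0.16, run in R 4.3.3 (TMM factors, filterByExpr, robust quasi-likelihood, 1 coefficient per line, Benjamini-Hochberg adjustment over 17220 genes). Contrasts set each line against the mean of the other 8 and against each other line (the largest of 8 one-sided p-values). That mean is on a log scale, so a line at 0 counts pulls it down. Library sizes of 15597117 to 32583547 counts set the precision of low genes. The lowest chi-square ratio between replicates of a line was 5.96, so no library was a copy of another of its line. Libraries of different lines were not compared in this way. On simulated data for A549 with 16315 genes, 97.9% of 4-fold and 45.8% of 2-fold changes were called with the fold threshold, and 1 unchanged gene was. A true 2-fold change lies on that threshold. The simulated lines had equal levels apart from the genes changed in A549, and a single spread setting for all genes. The real lines differ far more, so these shares do not give the recovery or false calls of the real contrasts. Alternatives were DESeq2 1.42.0, limma 3.58.1 on log2 TPM with pseudocounts of 1 and 0.1, no filter, mitochondrial genes left out, coding transcripts alone, the P number as a term, HepG2 left out, each library left out and, for family shares, estimated counts in place of TPM. Promoters came from RefSeq (GRCh38.p14). Windows of 6 of the genes were searched, and CCNE2, on chromosome 8, was left out of the search.

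Named genes are the 10 members, the called list genes with the largest change (up to 3 each way), the 6 inhibitors, the 3 nearest tested genes on each side and the 3 most alike in pattern. Of these, the text prints those a result turns on. The members and lists were chosen with earlier results of these data known. Replicate numbers follow the order of the samples and pair nothing across lines.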

Additional observations from a re-analysis of the deposited data

How the results depend on the processing

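The count of gene and line pairs called lower rose from 12 to 22 with limma on log2(TPM + 1) and to 22 on log2(TPM + 0.1), and the number of genes lower in 1 line than in each other rose from 4 to 8 under both. On the log2(TPM + 1) scale the median gene lay 1.21 log2 units lower in HepG2, which already had 5 of the 10 genes called lower with edgeR. CCND2 in A549, SK-Mel 28 and U251, with no usable error in edgeR, could not be called lower there. The part of either in the added calls was not tested. The counts of genes that differed, of higher calls, and of genes higher than in each other line stayed within 1.5 times under every alternative run. No count moved further than that when 1 library was left out. CCND2 in BJ turned to -0.71 on log2(TPM + 1), and CDKN2C in SK-Mel 28 to -0.14 with U251 left out. Of the single gene and line results, 306 settings kept call and direction, 13 lost the call and 2 reversed, and 886 kept and 5 lost it when 1 library was left out. Of the 45 family shares, 31 moved by more than 1 SD with estimated counts in place of TPM, since counts are not scaled to length, and 4 moved with protein-coding transcripts alone. No paired analysis was possible because the replicate numbers only follow the order of the samples. The HepG2 libraries, with few counts outside mitochondrial genes, limit what can be said of CCND2, CCNE2 and the transcripts there.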
